A study of Mus musculus with 12 samples.

Results

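Solute carriers are membrane proteins that move amino acids, ions, metals, vitamins, sugars, nucleotides and organic acids across the cell surface and the membranes of organelles. In the intestinal epithelium, carriers of the brush border take nutrients up from the lumen, carriers of the basolateral membrane pass them to the blood, and carriers of mitochondria, the Golgi apparatus and the endoplasmic reticulum serve the cell's own metabolism. The genes described here were all those measured whose symbol begins with Slc and a family number. Left out were 10 carriers of hexoses, folate, bile acids and fatty acids, namely Slc2a2, Slc2a5, Slc5a1, Slc46a1, Slc19a1, Slc10a2, Slc51a, Slc27a2, Slc27a4 and Slc25a20. The rule took 174 of 12488 probe sets, which stand for 141 of the 8251 genes that a probe set names singly. Expression did not enter the rule. Among the members 3 are accessory proteins named after a carrier rather than carriers: the scaffold genes Slc9a3r1 and Slc9a3r2 and the adaptor gene Slc4a1ap.

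Normal intestine was set against intestinal tumors in male Min/+ mice aged 91 days. Min/+ mice carry a mutant allele of the tumor suppressor gene Apc and form intestinal adenomas, and all 12 samples, normal ones included, came from this genotype. Affymetrix MG_U74Av2 arrays were hybridised with RNA of 6 normal and 6 tumor samples, with 1 array for each combination of tissue, diet (#1, #2 or #3) and genotype (Dnmt+/- or Dnmt+/+) of a DNA methyltransferase gene. The labels do not give the composition of the diets, the number of the Dnmt gene, the segment of intestine, the strain, or whether tumors were pooled. Nothing in them ties each array to a mouse of its own, and the p-values therefore reflect only how far these 12 samples scatter, technical variation included.

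All values are normalised intensities on a linear scale, and differences are log2 differences with their standard error (SE). The number of arrays limits the precision. On the 4 arrays of diet #1 dim probe sets were deposited at a fixed floor and the overall scale differed from that of the other 8 arrays, so diet #1 and this file format cannot be told apart. The normal arrays of diet #2 carried transcripts of the exocrine pancreas: the summed intensity of 12 pancreas markers was 253818 to 283071 there, 24917 to 27106 on the other 4 normal arrays and 24148 to 28297 on tumor arrays. All 12 enterocyte markers on the array passed the filter on dim genes, with sums of 110996 to 182993 in normal intestine and 120046 to 148013 in tumor. As a check of the genotype labels, Dnmt1 was lower in heterozygotes in each of the 4 matched comparisons under diets #2 and #3, with deposited intensities of 491, 612, 877 and 1027 against 688, 776, 1566 and 1483. Under diet #1 the gene lay at the file's floor of 50 on 3 arrays and at 252 in the wild type tumor. Over all 12 arrays the difference did not pass (-0.91, SE 0.35, adjusted p = 0.698, limma). Another Dnmt1 probe set, which was not tested, was higher by deposited intensity in heterozygotes in the normal arrays of diets #2 and #3 (76.0 against 71.6 and 107 against 70.3).

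Of the 141 genes, 96 passed the filter and were tested, each by its brightest probe set. Another 45 stayed below it, 24 of them at a floor on 6 or more arrays. The filter left out genes with a geometric mean intensity under 99.4. Slc1a1, a glutamate transporter, fell just short of it at 99.3, and Slc39a3, a zinc importer, just passed at 100.3. At a floor on 12 of 12 arrays were Slc7a1, a cationic amino acid transporter, Slc16a7, a monocarboxylate transporter, Slc26a1, a sulfate transporter, Slc29a2, a nucleoside transporter, the vesicular carriers Slc18a3 and Slc32a1, and Slc4a8, Slc25a48 and Slc27a3. Their levels are known only as upper bounds. In the family of peptide transporters the only gene on the array, Slc15a2, did not pass.

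The main comparison asked which carriers differ between tumor and normal intestine. In tumors 16 carriers were higher and 23 were lower at an adjusted p of 0.05 (limma, Benjamini-Hochberg over 6400 features), and 57 did not pass. The 16 make up 16.7% of the tested members against 18.2% of all features called higher, and the 23 make up 23.96% against 16.9% called lower. The largest increases were those of the amino acid transporter Slc38a4, the phosphate transporter Slc34a2 and the glucose transporter Slc2a1. The largest decreases were those of the bicarbonate transporter Slc4a5, the glucose-6-phosphate transporter Slc37a4 and the inositol transporter Slc5a11. A difference of at least 2-fold was reached by 15 of the 39 called genes, 8 higher and 7 lower. Among all features 521 of 2251 called ones reached it. For 6 genes every tumor array lay above every normal array (6.25% of members, 6.17% of all features), and for 9 genes every tumor array lay below (9.38% against 5.06%). Over all 96 members the median difference was -0.15, beside 0.0015 over all features. Median scaling in place of quantile normalization gave 14 higher and 32 lower, beside 847 and 1551 of 6406 features. The deposited values without normalization gave 21 and 17, beside 1358 and 729 of 6396. The median of all features shifted to -0.099 with median scaling and to 0.13 without normalization. Without the diet #2 arrays 11 were higher and 17 lower, beside 650 and 636 of 6400 features. Without those of diet #1 the counts were 16 and 23, beside 1067 and 987. In such tissue samples, fewer cells of a type and less RNA per cell cannot be told apart.

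**Figure D1:**
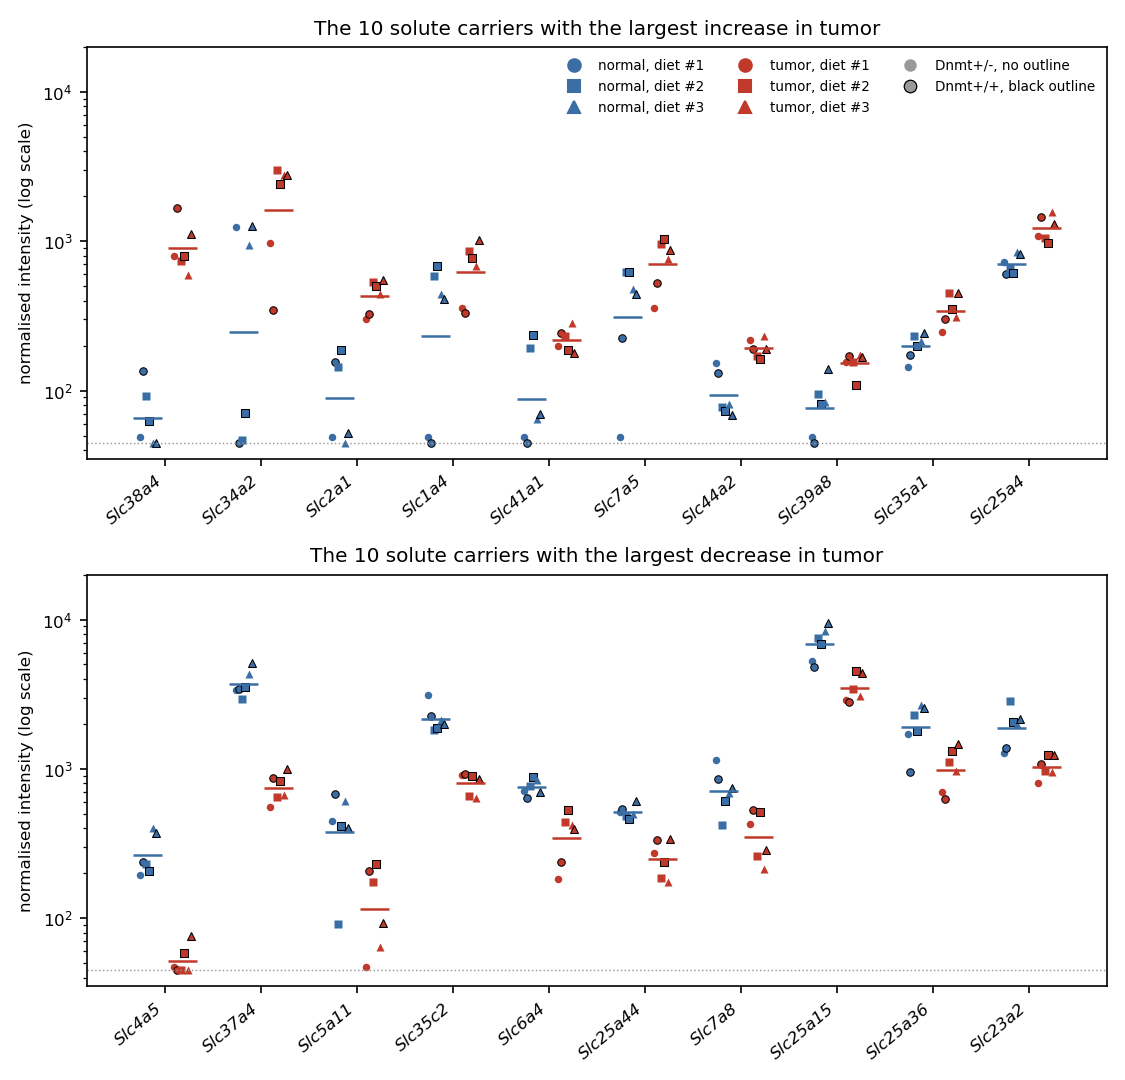
Normalised intensity (log axis) of the 10 carriers with the largest increase and the 10 with the largest decrease in tumor, with 6 normal arrays (blue) and 6 tumor arrays (red) each, 1 symbol per array shaped by diet and outlined for Dnmt+/+. Bars are geometric means and the dotted line is the floor at 44.8. The 6 tumor arrays of Slc38a4 lie at 591 to 1680, above all normal arrays, and those of Slc37a4 at 557 to 1000, below all normal arrays, whereas those of Slc34a2 overlap.

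In the amino acid class 5 of 21 tested genes rose in tumors, 3 fell and 13 did not pass, with a median difference of -0.022. These shares lie near the 18.2% higher and 16.9% lower of all features. Classes were set by family number, so this one also holds carriers of other substrates, among them Slc6a4 (serotonin), Slc6a2 (noradrenaline) and Slc6a8 (creatine). Median scaling gave 5 and 6, with a median of -0.14, and the unnormalised values 6 and 3, with a median of 0.090. Over all features these settings gave 847 and 1551 of 6406, and 1358 and 729 of 6396. The 5 that rose all carry neutral amino acids or glycine. Slc38a4, a sodium-coupled transporter of neutral amino acids, stood out: normal arrays had 44.8 to 136 (median 55.6), with 3 of 6 at a floor, and tumor arrays 591 to 1680 (median 800.2). The groups did not overlap, and all 6 pairs of matched arrays showed the increase, a difference of 3.79 (SE 0.26, 13.8-fold, adjusted p = 1.64e-05). Because normal values at the floor are only upper bounds, this fold is a low estimate.

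Slc1a4, an exchanger of alanine, serine and cysteine, had 44.8 to 684 (median 427) in normal intestine and 333 to 1021 (median 731) in tumor, a difference of 1.41 (SE 0.37, adjusted p = 0.0152). It was higher in tumor in all 6 pairs, by 2.88 on average under diet #1, where both normal arrays were at a floor, and by 0.37 and 0.97 under diets #2 and #3. Slc7a5, the light chain of the large neutral amino acid transporter LAT1, had 48.9 to 627 (median 464) in normal intestine and 359 to 1033 (median 818) in tumor (1.18, SE 0.34, adjusted p = 0.0227). Here too the lowest values were those of diet #1, and the groups overlapped across diets but not within them. The call for Slc7a5 was lost without either tumor array of diet #1 or without the wild type normal array of diet #3, with adjusted p up to 0.0537, and without the diet #2 arrays. Its heavy chain partner Slc3a2, which anchors LAT1 at the surface, did not pass, with 3666 to 4962 in normal intestine and 2828 to 4470 in tumor (-0.28, SE 0.13, adjusted p = 0.118).

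The other 2 genes that rose lay above the floor on all arrays. Slc1a5, the glutamine transporter ASCT2, had 138 to 216 in normal intestine and 245 to 298 in tumor, without overlap (0.60, SE 0.12, adjusted p = 0.0038). Slc6a9, the glycine transporter GLYT1, had 261 to 741 and 462 to 1247 (0.74, SE 0.18, adjusted p = 0.0130) and was higher in tumor in all 6 pairs.

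Promoter windows of 4 members are shown: the carrier with the largest increase, an amino acid carrier whose window holds an amino acid response element, the carrier with the smallest p of all members, and a mitochondrial carrier with an E-box. The windows run from 250 bases before to 50 bases after the start of transcription (RefSeq, GRCm38.p6), for a gene with several starts at the most upstream one. They were found for 81 of the 96 tested genes and 34 of the 39 called ones, and none was found for Slc1a5 and Slc7a5. Capitals mark matches, on either strand, to TGATGNAA, a core of the response element bound by ATF4 when amino acids are short, and to CACGTG, the E-box bound by MYC and related factors. The locations are chr15:97055907-97056206 (minus strand) for Slc38a4, chr11:20332664-20332963 (minus) for Slc1a4, chr9:44396696-44396995 (plus) for Slc37a4 and chr9:97110992-97111291 (minus) for Slc25a36.
Slc38a4: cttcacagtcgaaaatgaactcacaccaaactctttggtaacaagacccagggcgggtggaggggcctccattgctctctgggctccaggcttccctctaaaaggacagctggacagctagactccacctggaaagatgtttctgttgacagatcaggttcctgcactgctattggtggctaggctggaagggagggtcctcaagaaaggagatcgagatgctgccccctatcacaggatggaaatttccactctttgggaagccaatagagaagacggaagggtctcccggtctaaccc
Slc1a4: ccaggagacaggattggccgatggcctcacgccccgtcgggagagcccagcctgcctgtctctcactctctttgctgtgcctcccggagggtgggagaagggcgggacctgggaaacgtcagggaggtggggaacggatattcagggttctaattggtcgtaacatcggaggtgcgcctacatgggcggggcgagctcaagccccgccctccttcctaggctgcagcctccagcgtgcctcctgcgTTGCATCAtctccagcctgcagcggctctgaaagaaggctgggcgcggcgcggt
Slc37a4: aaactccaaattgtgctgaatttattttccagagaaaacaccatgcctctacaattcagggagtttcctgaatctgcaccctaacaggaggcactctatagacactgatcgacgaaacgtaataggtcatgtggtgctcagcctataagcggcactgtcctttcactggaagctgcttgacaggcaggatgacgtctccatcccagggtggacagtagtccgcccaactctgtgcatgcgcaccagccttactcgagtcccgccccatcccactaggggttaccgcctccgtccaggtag
Slc25a36: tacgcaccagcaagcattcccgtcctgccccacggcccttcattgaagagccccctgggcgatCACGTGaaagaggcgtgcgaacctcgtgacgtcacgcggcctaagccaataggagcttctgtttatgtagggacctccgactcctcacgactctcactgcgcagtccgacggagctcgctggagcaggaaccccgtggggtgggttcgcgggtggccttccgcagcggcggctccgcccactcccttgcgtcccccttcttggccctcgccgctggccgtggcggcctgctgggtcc
In the Slc1a4 window the amino acid response element core, on the opposite strand, begins 4 bases before the start and runs across it, and in the Slc25a36 window an E-box begins 187 bases before the start. In the table as a whole 3.97% of 32851 windows hold the former and 7.15% the latter. Of the 119 windows of tested carriers 5 (4.2%) hold the former and 12 (10.1%) the latter. A gene with several starts enters these counts with each of its windows, so windows are not independent. Among windows of carriers that rose, 2 of 19 hold the response element core (Slc1a4 and Slc50a1) and 1 of 19 an E-box. Among windows of carriers that fell, 0 of 28 hold the former and 7 of 28 (25%) the latter, those of Slc12a7, Slc20a1, Slc25a1, Slc25a15, Slc25a36 and Slc30a5. A match says only that these letters are present.

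The 3 members of the amino acid class that fell carry serotonin, creatine and neutral amino acids. Slc6a4, the serotonin transporter that clears serotonin released in the gut wall, had 642 to 876 (median 739) in normal intestine and 184 to 527 (median 410) in tumor, without overlap, a difference of -1.12 (SE 0.17, adjusted p = 9.58e-04). Its other probe set fell as well, by 0.69 (adjusted p = 0.0032). Slc7a8, the light chain LAT2 of a basolateral neutral amino acid exchanger, had 422 to 1145 (median 718) and 213 to 527 (median 359), a difference of -1.02 (SE 0.21, adjusted p = 0.0047). So of the LAT light chains that pair with Slc3a2, Slc7a5 was higher and Slc7a8 lower in tumor, each in all 6 pairs. Slc6a8, the creatine transporter, had 1954 to 4408 in normal intestine and 1474 to 2619 in tumor (-0.62, SE 0.10, adjusted p = 0.0014).

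Among the amino acid carriers that did not pass were subunits of the transporters of cystine and dibasic amino acids. Slc7a9, the light chain of the cystine and dibasic amino acid system, had 3930 to 5619 in normal intestine and 3159 to 6254 in tumor (-0.14, SE 0.11, adjusted p = 0.368). For its heavy chain partner Slc3a1 the difference was -0.013 (SE 0.13, adjusted p = 0.949). Slc7a7, which exports dibasic amino acids on the basolateral side, differed by -0.019 (SE 0.14, adjusted p = 0.929). With such SEs a difference of small size would not have been called. Slc6a20b, an imino acid transporter, came closest to the threshold with -0.44 (SE 0.16, adjusted p = 0.0560), and its highest normal array, at 2472, lay far above the normal median of 942.

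Among carriers of ions of phosphate, chloride and bicarbonate, single genes showed some of the largest differences. Slc34a2, the sodium-phosphate cotransporter of the brush border, had 44.8 to 1266 (median 509.6) in normal intestine and 344 to 2997 (median 2588) in tumor, a difference of 2.73 (SE 0.89, adjusted p = 0.0403). Its normal values fell apart by array: the wild type array of diet #1 and both diet #2 arrays had 44.8, 46.9 and 70.7, and the other 3 had 948 to 1266. The tumor value was lower than the normal one in the heterozygous pair of diet #1, at 973 against 1250. The call was lost without any 1 of 8 arrays, namely the tumor heterozygous and normal wild type arrays of diet #1, all 4 of diet #2, and the normal heterozygous and tumor wild type arrays of diet #3, with adjusted p up to 0.0972. It was lost also without all diet #2 arrays, without the filter and with a random block for the sample code. Slc20a1, a phosphate transporter found in most cell types, moved the other way, with 523 to 775 in normal intestine and 308 to 559 in tumor (-0.59, SE 0.16, adjusted p = 0.0167). That call was lost without the diet #2 arrays and on the unnormalised values.

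Slc4a5 (sodium bicarbonate cotransport) had 196 to 401 (median 234) in normal intestine and 44.8 to 76.5 (median 46.3) in tumor, where 3 of 6 arrays were at a floor. The groups did not overlap, and the difference was -2.34 (SE 0.16, 5.07-fold, adjusted p = 1.31e-05), again a low estimate for its fold. The chloride-bicarbonate exchanger Slc4a2 was measured at 636 to 1108 and 820 to 1241 (0.19, SE 0.079, adjusted p = 0.0886), and of the 5 tested genes of this class only Slc4a5 passed. Among all features 18.2% were called higher and 16.9% lower.

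Of the 7 tested genes for sodium, potassium, chloride and calcium, 1 rose and 2 fell, beside 18.2% and 16.9% of all features. Of 3 tested cation-chloride cotransporters 1 rose, 1 fell and Slc12a4 did not pass (-0.21, SE 0.33, adjusted p = 0.655). Slc12a2, the sodium-potassium-chloride importer NKCC1 that feeds chloride secretion, had 2154 to 3599 (median 2660) in normal intestine and 2894 to 4866 (median 4569) in tumor, whereas Slc12a7, a potassium-chloride exporter, had 1515 to 2344 (median 1786) and 851 to 1341 (median 1049). Both differences, 0.56 (SE 0.11, adjusted p = 0.0036) and -0.79 (SE 0.13, adjusted p = 0.0017), were seen in all 6 pairs. The call for Slc12a2 was lost under median scaling and without the diet #2 arrays. The scaffold gene Slc9a3r1, whose product NHERF1 holds brush border transporters in place, had 12361 to 15066 in normal intestine and 8218 to 12762 in tumor (-0.40, SE 0.12, adjusted p = 0.0257).

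Of 15 tested metal carriers 3 were higher in tumor and 3 lower, shares close to the 18.2% and 16.9% of all features. Median scaling gave 2 and 4, beside 847 and 1551 of 6406 features, and the unnormalised values 4 and 1, beside 1358 and 729 of 6396. Slc41a1, a magnesium transporter, had 44.8 to 236 (median 67.1) in normal intestine and 178 to 284 (median 216) in tumor (1.32, SE 0.35, adjusted p = 0.0157). Its normal arrays of diet #2, at 193 and 236, lay within the tumor range, and those of diets #1 and #3 lay at 44.8 to 70.1. Without the diet #1 arrays the call was lost. Slc39a8, the zinc importer ZIP8, had 44.8 to 140 in normal intestine and 109 to 174 in tumor (1.00, SE 0.23, adjusted p = 0.0090), a call also lost without the diet #1 arrays, where both normal values were at a floor. Slc39a7, which releases zinc from the endoplasmic reticulum, had 938 to 1214 and 1186 to 2043 (0.47, SE 0.14, adjusted p = 0.0290).

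The metal carriers that fell were a zinc exporter, a zinc transporter of the secretory pathway and a copper importer. Slc30a1, the zinc exporter ZnT1, had 122 to 295 in normal intestine and 91.2 to 170 in tumor (-0.62, SE 0.16, adjusted p = 0.0143). Slc30a5, the zinc transporter ZnT5, had 488 to 1637 and 333 to 1204 (-0.58, SE 0.12, adjusted p = 0.0047). Slc31a1, the copper importer CTR1, had 5015 to 8426 and 4176 to 5303 (-0.36, SE 0.11, adjusted p = 0.0297). For Slc30a5 and Slc31a1 another probe set fell too, by 0.55 and 0.48.

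Sugar-related carriers outside those excluded by the rule showed the clearest opposite pair. Slc2a1, the glucose transporter GLUT1 that most growing cells use, had 44.8 to 189 (median 98.3) in normal intestine and 300 to 550 (median 471) in tumor, without overlap (2.28, SE 0.32, 4.86-fold, adjusted p = 6.61e-04). The increase was 1.85, 1.65 and 3.35 under diets #1, #2 and #3. The heterozygous normal arrays of diets #1 and #3 were at a floor (48.9 and 44.8). The fold and the increases under these diets are therefore low estimates. Slc37a4, which brings glucose-6-phosphate into the endoplasmic reticulum for the last step of glucose release, had 2928 to 5091 (median 3458) in normal intestine and 557 to 1000 (median 746) in tumor. This decrease of 2.31 (SE 0.11, 4.97-fold, adjusted p = 1.73e-06) was alike under the 3 diets, at -2.29, -2.13 and -2.52. The call held with any 1 array left out and under every other alternative run except diet #1 arrays alone (adjusted p = 0.168).

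Slc5a11, a sodium-coupled inositol transporter, had 91.9 to 678 (median 430) in normal intestine and 47.4 to 230 (median 133) in tumor (-1.71, SE 0.52, adjusted p = 0.0303). The low normal value was the heterozygous array of diet #2, where tumor exceeded normal at 174 against 91.9. The call was lost without any 1 of 8 arrays: the tumor heterozygous and both normal arrays of diet #1, the normal wild type array of diet #2, or any array of diet #3 (adjusted p up to 0.0748). It was lost also without all diet #1 arrays, without normalization and without the filter. Slc50a1, a sugar transporter of the SWEET family, had 252 to 499 and 439.9 to 745 (0.59, SE 0.095, adjusted p = 0.0014). Slc2a8, an intracellular glucose transporter, and Slc5a6, the biotin and pantothenate transporter, did not pass, with differences of 0.018 and 0.031.

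**Figure D2:**
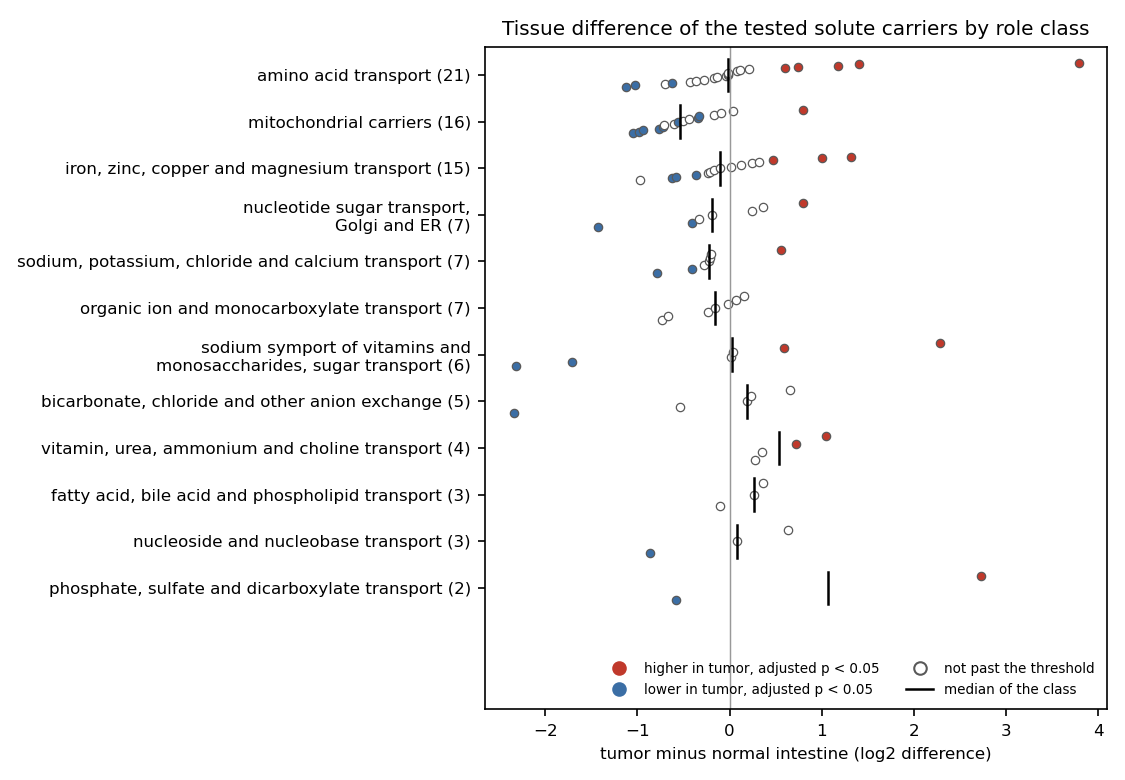
Tumor minus normal log2 difference of each of the 96 tested members, 1 circle per gene, by role class with the number tested in brackets; filled circles passed the threshold and bars are class medians. Mitochondrial carriers lie mostly left of 0 with a median of -0.53, and the amino acid class has a median of -0.022 with Slc38a4 at 3.79.

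Mitochondrial carriers, the SLC25 family that moves nucleotides and metabolites across the inner membrane, included 8 of 16 tested genes that were lower in tumor and 1 that was higher, with a median of -0.53, beside 16.9% and 18.2% of all features, and 7 did not pass. Between 7 and 10 fell under median scaling, without normalization and without the diet #1 arrays. Of all features 1551 of 6406, 729 of 6396 and 987 of 6400 were lower in these fits. Without the diet #2 arrays 4 fell, beside 636 of 6400 features. Slc25a44, a carrier of branched-chain amino acids, had 463 to 610 (median 509) in normal intestine and 174 to 338 (median 256) in tumor, without overlap (-1.05, SE 0.14, adjusted p = 4.35e-04). Slc25a15, the ornithine carrier that links mitochondria to the urea cycle and to proline and polyamine synthesis, had 4787 to 9472 (median 7181) and 2783 to 4548 (median 3247), also without overlap (-0.99, SE 0.13, adjusted p = 4.14e-04). Slc25a36, a carrier of pyrimidine nucleotides, had 959 to 2694 and 628 to 1470 (-0.94, SE 0.17, adjusted p = 0.0024).

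The other mitochondrial genes that fell were Slc25a5, Slc25a11, Slc25a39, Slc25a1 and Slc25a10. Slc25a11, the oxoglutarate-malate carrier, had 1684 to 2882 in normal intestine and 1038 to 2032 in tumor (-0.73, adjusted p = 0.0023). Slc25a39, needed for glutathione in mitochondria, had 2725 to 4553 and 2028 to 2713, without overlap (-0.56, adjusted p = 0.0026). The citrate carrier Slc25a1 and the dicarboxylate carrier Slc25a10 showed the smallest falls, by 0.34 each.

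The ADP/ATP carriers, which exchange mitochondrial ATP for cytosolic ADP, went opposite ways. Slc25a4, the form typical of heart and muscle, was the only one of the 16 to rise, from 605 to 848 (median 690) in normal intestine to 981 to 1564 (median 1189) in tumor, without overlap (0.79, SE 0.11, adjusted p = 5.44e-04). Slc25a5, the form typical of dividing cells, had 4827 to 7750 (median 6200) and 2481 to 6579 (median 2944), lower in tumor in all 6 pairs (-0.76, SE 0.15, adjusted p = 0.0041). Of its other probe sets, 1 fell by 0.71 (adjusted p = 0.0186). The other had 6069 to 7806 on the arrays of diet #1 and 44.8 to 88.0 on all 8 arrays of diets #2 and #3 (0.20 for tissue, adjusted p = 0.424), a split that the tested probe set did not show. This gene has close copies in the genome, and its probe sets may share signal with them. Slc25a51, the mitochondrial NAD carrier, did not pass by its tested probe set (-0.61, adjusted p = 0.327) but fell by its other one (-0.57, adjusted p = 0.0255). For Slc25a3, the phosphate carrier, the difference was -0.72 (SE 0.34, adjusted p = 0.1385).

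In the Golgi and endoplasmic reticulum class, which loads sugar nucleotides for glycan synthesis, 1 of 7 tested genes rose and 2 fell. Of all features 18.2% were called higher and 16.9% lower. Slc35a1, the CMP-sialic acid transporter, had 145 to 242 (median 207) in normal intestine and 249 to 453 (median 330) in tumor, without overlap (0.80, SE 0.12, adjusted p = 0.0011). Slc35c2, linked to the transport of GDP-fucose, had 1818 to 3107 (median 2073) and 640 to 922 (median 879), without overlap (-1.43, SE 0.13, adjusted p = 5.42e-05). The smaller fall was that of Slc35e1 (-0.40, SE 0.14, adjusted p = 0.0435), whose other probe set did not pass (-0.17, adjusted p = 0.3295). Slc35a2, the UDP-galactose transporter, gave 0.36 (SE 0.14, adjusted p = 0.0776).

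In the class of vitamin and choline transport, which held SLC44 genes and Slc48a1, 2 of 4 tested genes rose and 0 fell, beside 18.2% and 16.9% of all features. Both that rose are choline transporter-like genes. Slc44a2 had 68.6 to 152 (median 79.7) in normal intestine and 162 to 231 (median 189) in tumor, without overlap (1.05, SE 0.15, adjusted p = 7.26e-04). Slc44a4, also a transporter of thiamine pyrophosphate, had 1559 to 2741 and 2381 to 4246 (0.72, SE 0.17, adjusted p = 0.0093). Slc44a1 gave 0.36 (SE 0.13, adjusted p = 0.0635). Slc23a2, the ascorbate transporter SVCT2, was counted instead in the class of nucleoside and nucleobase transport, where 0 of 3 tested genes rose and 1 fell. Slc23a2 fell from 1275 to 2866 (median 2025) to 810 to 1237 (median 1028), without overlap (-0.86, SE 0.15, adjusted p = 0.0020). The nucleoside transporter Slc29a1, by contrast, did not pass (0.63, SE 0.26, adjusted p = 0.0873), and its other probe set had the opposite sign (-0.18).

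No gene passed in the class of organic ions and monocarboxylates (0 of 7) or of fatty acids, bile acids and phospholipids (0 of 3). Of all features 18.2% were called higher and 16.9% lower, 35.2% in either direction. At unadjusted level 47 of the 96 members had p under 0.05 in the tissue comparison, 48.96% against 44.4% of all features. Slc16a1, the lactate and butyrate transporter MCT1, had the smallest p of the former class, with 139 to 290 in normal intestine and 47.4 to 195 in tumor (-0.66, SE 0.29, adjusted p = 0.111). It passed without the heterozygous tumor or the wild type normal array of diet #2 and without all diet #2 arrays, with adjusted p down to 0.0273 when 1 array was left out. Its difference became -0.41 without the heterozygous tumor array of diet #1, which was at the floor. Slc10a3, an orphan member of the bile acid transporter family, gave 0.26 (SE 0.15, adjusted p = 0.222), and 0.16 to 0.365 with 1 array left out.

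Other transport genes were read for comparison from lists of known members, whose counts stand beside 18.2% of all features called higher and 16.9% called lower. Of 10 tested genes for ATP-driven pumps 4 rose and 2 fell. Fxyd3, a small regulator of the sodium pump, went from 312 to 478 in normal intestine to 2366 to 5130 in tumor (3.16, SE 0.18, adjusted p = 5.62e-06), while Atp1b1, the main beta subunit of that pump, went from 1737 to 3505 to 639 to 1912 (-1.17, SE 0.16, adjusted p = 5.77e-04). Of 14 tested ABC transporters 0 rose and 4 fell, led by the export pumps Abcc2 (-1.58, SE 0.15, adjusted p = 7.27e-05) and Abcg2 (-0.78, SE 0.11, adjusted p = 8.06e-04). Among 14 channels, aquaporins and organic anion polypeptides 3 rose and 1 fell, with the calcium-activated potassium channel Kcnn4 at 1.26 (SE 0.12, adjusted p = 1.03e-04). Clca1, a goblet cell product, was at 0.46 (adjusted p = 0.0497), a call lost without any 1 of 9 arrays and under 9 of 12 other processing choices.

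Of 8 tested partners and regulators of carriers 1 rose and 3 fell, beside 18.2% and 16.9% of all features. Pdzk1, a scaffold of brush border transporters, went from 2088 to 4100 to 732 to 1899 (-1.14, SE 0.23, adjusted p = 0.0048). Myc, the transcription factor of growing cells, went from 44.8 to 131 to 47.4 to 279.5 (1.21, SE 0.25, adjusted p = 0.0047), a call lost without the diet #2 arrays.

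Markers of several cell types moved with tissue. Their counts stand beside 18.2% of all features called higher and 16.9% called lower. All 6 tested mast cell markers were higher in tumor, with sums of 664 to 1045 in normal intestine and 8239 to 29621 in tumor; Mcpt4 and Tpsab1 lay at a floor on all arrays. Of 5 Paneth cell markers 4 were higher (sums of 16213 to 35707 and 32778 to 47660), and of 9 goblet cell markers 5 were higher and 1 lower (76744 to 93687 and 96344 to 112258). Enteroendocrine markers, 5 of 7, were lower (12599 to 15009 and 4144 to 7546), as were 5 of 6 adipocyte markers (1820 to 2755 and 1170 to 1414) and 3 of 6 lymphocyte markers (8504 to 10479 and 5403 to 9381). Enterocyte markers were mixed, 2 of 12 higher and 3 lower. Under median scaling these were 1 and 6, and those of goblet cells 4 and 4, beside 847 and 1551 of 6406 features. Endothelial markers were 2 of 6 higher and 1 lower, smooth muscle markers 1 of 8 each way, and enteric neuron markers 1 of 4 lower, while 0 of 2 erythroid and 0 of 12 pancreas markers passed. Their part in the carrier differences was not tested.

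For the numbered diets, diets #3 and #2 were compared over both tissues and genotypes. With diet #3, 3 carriers were higher and 6 lower, 3.13% and 6.25% of the members, against 5.69% and 3.59% of all features. The genes that were higher are a sodium-calcium exchanger, a zinc importer and the ADP/ATP carrier Slc25a4. Those that were lower include the bicarbonate carrier Slc4a4, the glutamine carrier Slc38a5 and the carnitine carrier Slc22a5. With every probe set tested, 5 of 109 carrier probe sets were higher and 6 lower, beside 394 and 282 of 7453 features. Second probe sets of Slc23a3 (1.10, limma adjusted p = 0.0054) and Slc6a4 (0.55, adjusted p = 0.0402) were higher with diet #3. The tested probe sets of these genes did not pass, at 0.23 (adjusted p = 0.540) and -0.16 (adjusted p = 0.628). The 9 calls were less firm than those for tissue. On unnormalised values limma made 0 (0.0938% of all features), and without the sample code as a block 3 (4.28%). With 1 array left out it made 1 to 13 (2.34% to 14.4% of all features).

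Slc8a1, the sodium-calcium exchanger NCX1, had 146, 88.8, 132 and 78.7 with diet #2 (normal Dnmt+/-, normal Dnmt+/+, tumor Dnmt+/-, tumor Dnmt+/+) and 198, 171, 232 and 136 with diet #3. All 4 matched comparisons were higher with diet #3, by 0.75 (SE 0.13, adjusted p = 0.0124), and the call held without any single array. Slc39a1, the zinc importer ZIP1, had 1298, 1399, 1517 and 1858 with diet #2 and 1845, 1919, 3076 and 2850 with diet #3 (0.65, SE 0.14, adjusted p = 0.0230), highest in the tumors of diet #3. Slc25a4 had 657.5, 617, 1049 and 980.5 against 848, 817, 1564 and 1297 (0.44, SE 0.11, adjusted p = 0.0448), so that both tissues were higher with diet #3.

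Slc4a4, the sodium bicarbonate cotransporter NBCe1, which the pancreatic duct uses for secretion, had 2066, 1375, 588 and 589 with diet #2 and 386, 462.5, 313 and 412 with diet #3 (-1.35, SE 0.31, adjusted p = 0.0291). Its high values were those of the diet #2 normal arrays, the same arrays whose pancreas markers summed to 253818 to 283071, and the part of these markers in the result was not tested. Tumor arrays, where the marker sum was 24148 to 28297, had 588 and 589 with diet #2 and 313 and 412 with diet #3, a smaller gap than in normal intestine. Slc38a5, a glutamine and asparagine transporter, had 915, 1384, 765.5 and 533.5 against 402, 529.8, 386 and 428 (-0.97, SE 0.20, adjusted p = 0.0224), the diets being separated only narrowly. Slc2a8 had 322, 409.9, 290.2 and 321 against 122, 254, 220.1 and 206.5 (-0.78, SE 0.17, adjusted p = 0.0255).

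Slc22a5, the carnitine transporter OCTN2, had 366, 319, 334 and 324 with diet #2 and 271, 189, 257 and 208 with diet #3 (-0.55, SE 0.14, adjusted p = 0.0437). Slc30a3, the zinc transporter ZnT3, had 1674, 1844, 1866 and 1923 against 1264, 1121, 1299 and 1329 (-0.54, SE 0.12, adjusted p = 0.0265). In both genes the diets did not overlap. Slc25a39, which the naming rule does not reach and which is given to complete the 9, had 4553, 4408, 2473 and 2713 against 3339, 2988, 2028 and 2108 (-0.41, SE 0.11, adjusted p = 0.0451).

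Without the block for the sample code the calls for Slc25a4, Slc4a4, Slc2a8, Slc22a5 and Slc30a3 were lost. Most calls were also lost without single arrays. Those for Slc39a1, Slc38a5 and Slc2a8 were lost without either normal array of diet #2, the heterozygous tumor array of diet #2 or the heterozygous normal array of diet #3, with adjusted p up to 0.0649, 0.0805 and 0.0740. That for Slc4a4 was lost without any 1 of the 4 normal arrays of diets #2 and #3, with adjusted p up to 0.101. Slc25a4 lost its call without any 1 of 9 arrays, the heterozygous normal array of diet #1 and all 8 of diets #2 and #3 (adjusted p up to 0.130). Slc22a5 did so without any 1 of 7, all 4 of diet #2 and all of diet #3 except the heterozygous tumor array (up to 0.1155). For Slc30a3 it was any 1 of 5, all of diet #2 except the heterozygous normal array, and both normal arrays of diet #3 (up to 0.0850). The call for Slc25a39 was not followed in this way.

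**Figure D3:**
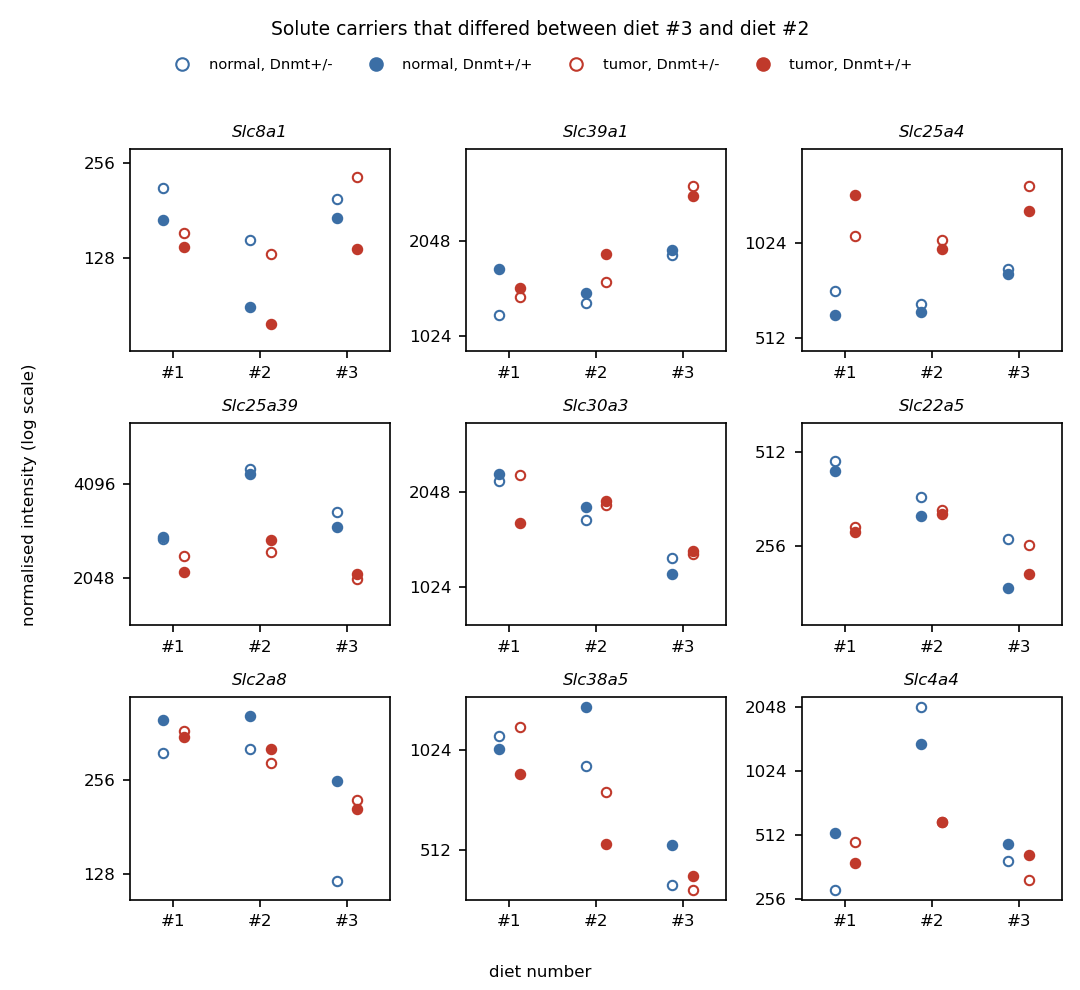
Normalised intensity (log axis) of the 9 carriers that differed between diet #3 and diet #2, by diet number, with 1 circle per array (blue normal, red tumor, open Dnmt+/-, filled Dnmt+/+). All 4 diet #3 values of Slc38a5 (386 to 529.8) lie below the 4 of diet #2 (533.5 to 1384), and the high diet #2 values of Slc4a4, 2066 and 1375, are those of normal intestine.

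Diet #1 values are given as levels only, since its files had another format. In the plot of carriers by diet, Slc38a5 had 865 to 1204 with diet #1, a geometric mean of 1051 beside 848 and 433 with diets #2 and #3. For Slc30a3 these means were 2112, 1824 and 1251, and for Slc22a5 365, 335.5 and 229.

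Whether the tissue difference itself depends on diet was tested by the interaction of tissue with diet #3 against #2. No carrier passed (0 of 96, limma), against 0.359% of all features. At an unadjusted level 16 members had p under 0.05, 16.7% against 10.7% of all features. The genes with the smallest p were Slc39a4, Slc41a1 and Slc11a2, importers of zinc and iron and a magnesium transporter. In Slc39a4 and Slc41a1 the normal arrays spanned a wider range over the diets than the tumor arrays did.

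Slc39a4, the zinc importer ZIP4 of the brush border, had 5303 and 4256 in normal intestine with diet #2, 2399 and 2051 with diet #3 and 3025 and 2850 with diet #1, whereas the 6 tumor arrays lay at 2569 to 2844. The interaction was 1.18 (SE 0.20, adjusted p = 0.0908). It passed under 4 of 10 other processing choices, and in 0 of 12 fits with 1 array left out. Its other probe set ran from 907 to 2078 in normal intestine and from 951.5 to 2025 in tumor, with a tissue difference of 0.073 (adjusted p = 0.604). For diet #3 against #2 that probe set had the opposite sign, at 0.23 (adjusted p = 0.217) against -0.51 (adjusted p = 0.118) for the tested one. Slc41a1 gave 1.78 (SE 0.35, adjusted p = 0.153), from the normal values described above.

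Slc11a2, the iron importer DMT1, spanned the widest range of the 3. Normal intestine had 7333 and 16614 with diet #2, 269 and 851 with diet #3 and 467 and 4729 with diet #1. Tumor had 282 and 906, 342 and 1930, and 2903 and 2161 in the same order. The tumor minus normal difference was -4.45 with diet #2 and 0.77 with diet #3, an interaction of 5.22 (SE 1.07, adjusted p = 0.175). It passed without any 1 of the 4 arrays of diet #1 (adjusted p down to 0.0352), without all of them and on the unnormalised values, while the tissue difference over all arrays was -0.98 (SE 0.89, adjusted p = 0.430). Another probe set of the gene did not share the high diet #2 values: it had 709 and 873.5 there, 555 and 694 in normal intestine with diet #3, and 1671 and 1687 with diet #1. The 2 arrays with the highest Slc11a2 and Slc39a4 values are those with pancreas transcripts, whose part was not tested.

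**Figure D4:**
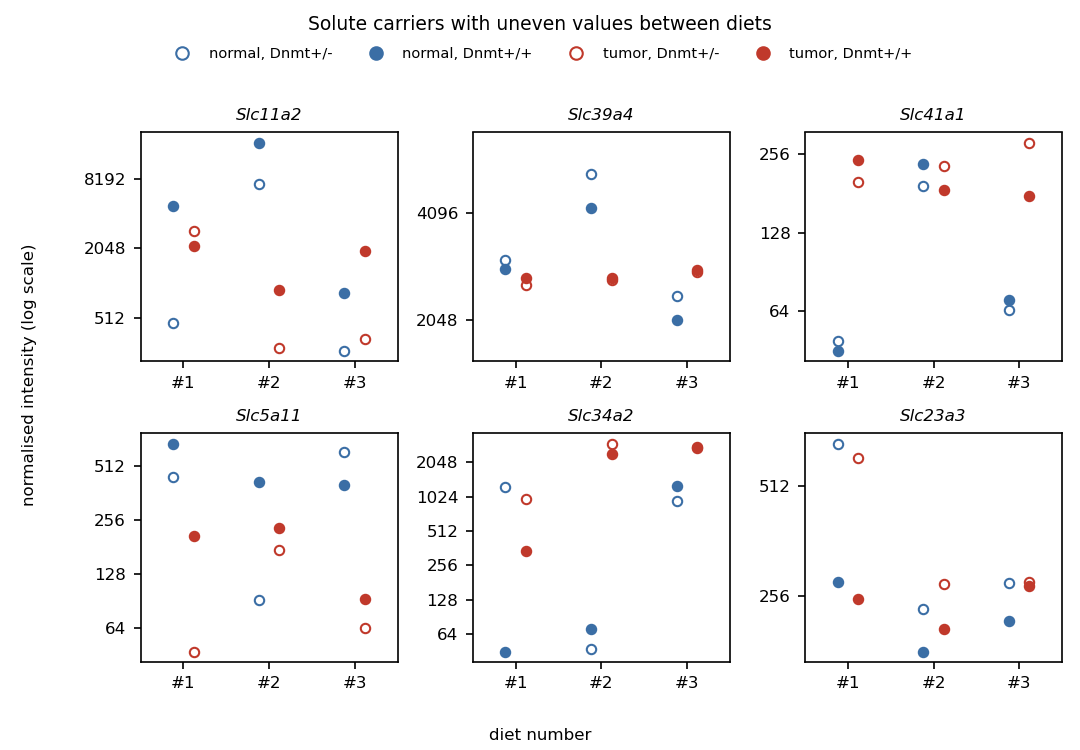
Normalised intensity (log axis, a scale of its own for each gene) of 6 carriers with uneven values between diets, with 1 circle per array (blue normal, red tumor, open Dnmt+/-, filled Dnmt+/+). Normal arrays of diet #2 are high for Slc11a2 (7333 and 16614) and Slc39a4 (5303 and 4256) and low for Slc34a2 (46.9 and 70.7). Slc23a3 is highest in both heterozygous arrays of diet #1, at 669 and 611.

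The Dnmt genotype was compared over both tissues and all diets. No carrier passed (0 of 96, limma, smallest adjusted p = 0.641), against 0.0469% of all features, and 5 members had an unadjusted p under 0.05, 5.21% against 7.05% of all features. The genes of smallest p were Slc8a1, Slc37a4 and Slc23a3. Slc8a1 was higher in heterozygotes in all 6 matched comparisons, by 0.15 to 0.77, with an estimate of 0.49 (SE 0.11, adjusted p = 0.641). Slc37a4 was lower in heterozygotes in all 6, by 0.35 (SE 0.095, adjusted p = 0.672), a small difference beside its tissue difference of -2.31. Slc23a3, an orphan member of the ascorbate transporter family, was higher in heterozygotes in all 6 matched comparisons, by 0.62 (SE 0.17, adjusted p = 0.672). Its values were 669 and 611 in the heterozygous arrays of diet #1 against 279 and 250.2 in the wild type ones, and the gap was smaller with diets #2 and #3, down to 0.032. The other probe set of Slc23a3 did not show the high values, with 236 and 206 in the heterozygous arrays of diet #1 against 189 and 199. It was lower in heterozygotes in normal intestine of diet #2 (99.7 against 122.5) and in tumor of diet #3 (178 against 219).

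Whether the tissue difference depends on genotype was tested in the same way. No carrier passed (0 of 96, limma, every adjusted p = 1.0), and 0 of 6400 features did (0% called). An unadjusted p under 0.05 was found for 3 members, 3.13% against 2.17% of all features. Slc6a2, the noradrenaline transporter, had a tumor minus normal difference of 0.67 in heterozygotes and -1.0005 in wild type, an interaction of 1.67 (SE 0.57, adjusted p = 1.0). For Slc44a4 the tumor increase was 1.09 in heterozygotes and 0.35 in wild type (interaction 0.74, SE 0.26, adjusted p = 1.0). Slc9a3r2, the scaffold NHERF2, gave -0.92 and 0.36 (interaction -1.28, SE 0.54, adjusted p = 1.0), with its lowest values, 44.8 and 47.4, at a floor on diet #1 arrays. Slc37a4, the carrier with the smallest p for tissue, differed by -2.49 in heterozygotes and -2.14 in wild type.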

How the data were processed

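Intensities of 12488 probe sets on 12 arrays were used as the authors deposited them, in linear units, made by software not given in the sources used here. Diet #1 arrays had a mean deposited intensity of 306 to 403 and 5064 to 5695 probe sets at the file's floor of 50, and the other 8 a mean of 1000. After removal of 66 control probe sets, intensities were quantile normalised, floored at the 20th percentile (44.8) and log2 transformed, probe sets in the lowest 40% by mean were dropped, and the brightest probe set of each gene was kept, giving 6400 features. Tied values of diet #1 arrays at the file's floor became 44.8, 47.4 or 48.9. Probe sets were named through GEO's platform annotation, with all 174 members matched to RefSeq by gene identifier.

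Tissue was tested in limma 3.58.1 (R 4.3.3, statmod 1.5.0) with diet and genotype as covariates. For genotype, diet #3 against #2 and both interactions, the code that a normal and a tumor array share entered as a random block (correlations of -0.16, -0.16 and 0.038). A negative correlation tends to make the SEs for genotype and for diet #3 against #2 smaller than no block does. Without the block 3 carriers rather than 9 passed between these diets (4.28% rather than 9.28% of all features). P-values were Benjamini-Hochberg adjusted over all features, at a threshold of 0.05. Deviations of arrays with the same code from their tissue means correlated at 0.46 to 0.68, and at -0.57 to -0.38 once diet and genotype, which the codes also carry, were removed. Each code is 1 combination of diet and genotype, so removing these terms itself pushes the correlations below 0. The negative values therefore do not tell whether arrays of a code are alike. Whether a code stands for 1 animal is not stated.

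Genes were named by a rule: the 10 largest called increases and decreases, the 2 largest in each role class (or the smallest p), and up to 5 each way for other comparisons (or the 3 smallest p). Other members were named after their values were seen, to complete a class. Members, role classes, lists and the rule were chosen with earlier results of these data known. The scripts were tested on simulated data. Alternatives covered scaling, floor, filter, probe set choice, variance model, block, diets left out and single arrays left out; diet #1 alone was added after seeing the data.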

Additional observations from a re-analysis of the deposited data

Results flagged for a closer look

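Of 76 groups of 6 arrays (38 named carriers in normal intestine and in tumor), 7 held an array standing apart by Dixon's criterion for 6 values. That criterion flags about 1 in 20 groups when all 6 values come from 1 population. Here each group mixes diets, genotypes and file formats, and the carriers were named from these same data. The 7 can therefore not be set against that rate. Among them 4 values came from diet #1 arrays. Slc23a3 was high in both heterozygous arrays of diet #1, at 668.9 in normal intestine (nearest other array 279) and 611 in tumor (nearest 278.5). Slc9a3r2 was low in the wild type normal array of diet #1, at 44.77 (nearest 113.5), and in the heterozygous tumor array of diet #1, at 47.35 (nearest 94.7), both values being at a floor. Slc39a8 was low in the wild type tumor array of diet #2, at 108.6 (nearest 154.4). Slc5a11 was low in the heterozygous normal array of diet #2, at 91.91 (nearest 401.5). Slc20a1 was high in the heterozygous normal array of diet #3, at 775.2 (nearest 574.5).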

How the results depend on the processing

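Against 16 carriers higher and 23 lower in tumor (35.2% of all features called), removing the lowest 60% of probe sets gave 10 higher. In that fit 66 carriers were tested, and 1026 of 4454 features were higher. Diet #3 arrays alone gave 7 and 6, diet #1 arrays alone 0 and 0, and diet #2 arrays alone 11 and 18, with 4 arrays in each fit. Of all features 7.73%, 0% and 22.2% were called in these fits. Leaving out 1 array gave 14 to 18 higher and 18 to 23 lower, with 29.4% to 34% of all features called. With the code as a fixed replicate block the counts were 16 and 23 (32.9% of all features), and as a random one 15 and 21 (32.7%). Against 9 carriers called between diets #3 and #2 (9.28% of all features), there were 0 without normalization (0.0938%) and 5 without a filter (4.94%). Without the replicate block 3 passed (4.28%), and without diet #1 arrays 21 (24%). With 1 array left out 1 to 13 passed (2.34% to 14.4%). The percentages are those of all features called in each fit, and the cause of the shifts was not tested. Against 0 carriers with a tissue difference dependent on diet (0.359% of all features), there were 5 without normalization (1.91%). There was 1 each with the floor at the 40th percentile (0.953%), no filter (0.559%), the lowest 60% removed (0.606%) or trended robust variances (0.578%). Without diet #1 arrays 2 passed (0.547%), and with 1 array left out 0 to 3 (0.203% to 0.969%). For genotype and its interaction with tissue, limma called 0 in every alternative run, leave-one-out fits included. With diet #2 arrays alone the tissue difference reversed for Slc41a1 (-0.0361) and Slc5a11 (0.0333). Of 24 named carriers called by tissue, 21 passed in every fit with 1 array left out and 17 in every other alternative except single diets. Values near the floor, on some array for 25 of 96 members, carry only bounds.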
